A study of Mus musculus with 2 samples.

Results

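Histone deacetylases remove acetyl groups from lysines of histones and other proteins, and acetylated histones are typical of open, active chromatin. The mammalian genes fall into classes: class I enzymes (Hdac1, Hdac2, Hdac3, Hdac8) are mostly nuclear and the first 3 work in large corepressor complexes; class IIa proteins (Hdac4, Hdac5, Hdac7, Hdac9) move between cytoplasm and nucleus after signals and bind MEF2 transcription factors; Hdac6 (class IIb) acts on tubulin in the cytoplasm; and Hdac11 is the only member of class IV. Accessible chromatin at 10 of these genes was compared between 2 ATAC-seq libraries of mouse bone marrow-derived mast cells, 1 wild type and 1 deleted for the de novo DNA methyltransferase gene Dnmt3a. ATAC-seq marks open DNA by the insertion of adapters by the transposase Tn5. Peaks of both lists were merged into 23364 regions, and each region was given to whichever protein-coding gene interval was closest, up to 100 kb away. By this rule 25 regions, holding 18 wild-type and 19 knockout peaks, belonged to the 10 genes. The genes were chosen by family name with earlier results of these data known, and their regions were selected on called peaks and distance to a gene, so the counts are a description.

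Both cultures came from the marrow of young females (3 to 4 weeks old), DNMT3A-KO mice and their wild-type littermates, kept for 4 weeks in the mast cell growth factor IL-3. More than 95% of cells were then Kit+ FcεRIα+, the surface phenotype of mast cells, and neither culture was treated further. The labels give neither the Dnmt3a allele nor the cells in which it was deleted, nor whether marrow of several mice was pooled. With 1 library per genotype there is no test, and the spread between animals is unknown. In such bulk libraries fewer open cells and a weaker opening in each cell cannot be told apart. The lists held 17170 wild-type and 19684 knockout peaks, with a median of 9 overlapping reads at the summit in both. Dnmt3a itself had 6 wild-type and 5 knockout peaks in 4 shared and 3 unshared regions. The strongest wild-type one (chromosome 12, 3897094 to 3897359) had no knockout peak, which checks the label only if the unnamed allele removes that site. The wild-type list held regions at 9 and the knockout list at 10 of 10 mast cell markers, against 5 and 6 of 20 markers of other blood cells.

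Every one of the 10 genes had at least 1 region, and 9 of 10 appeared in each list. Across all 21631 protein-coding genes 46.4% had a wild-type and 49.6% a knockout region. A shared region was present at 7 of the 10, against 40.5% of all genes. Of the 11606 genes with a region in either list, 24.6% had no shared one, so the 7 of 10 shows no excess. Hdac8 was missing from the wild-type list and Hdac9 from the knockout list. Of the 25 regions, 11 (44.0%; exact binomial interval 24.4 to 65.07) were shared, 6 (24.0%; 9.36 to 45.13) were wild-type-only and 8 (32.0%; 14.95 to 53.5) were knockout-only. The corresponding shares over all regions were 55.1%, 16.9% and 28.0%, each inside the interval of the listed genes. Among unshared regions 8 of 14 (57.1%; 28.86 to 82.34) were knockout-only, against 62.3% of all. Intervals cover counting error only and treat the regions as independent, although Hdac4 alone held 7 of the 25. Hdac1, Hdac5, Hdac6 and Hdac11 had shared regions and no other.

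**Figure D1:**
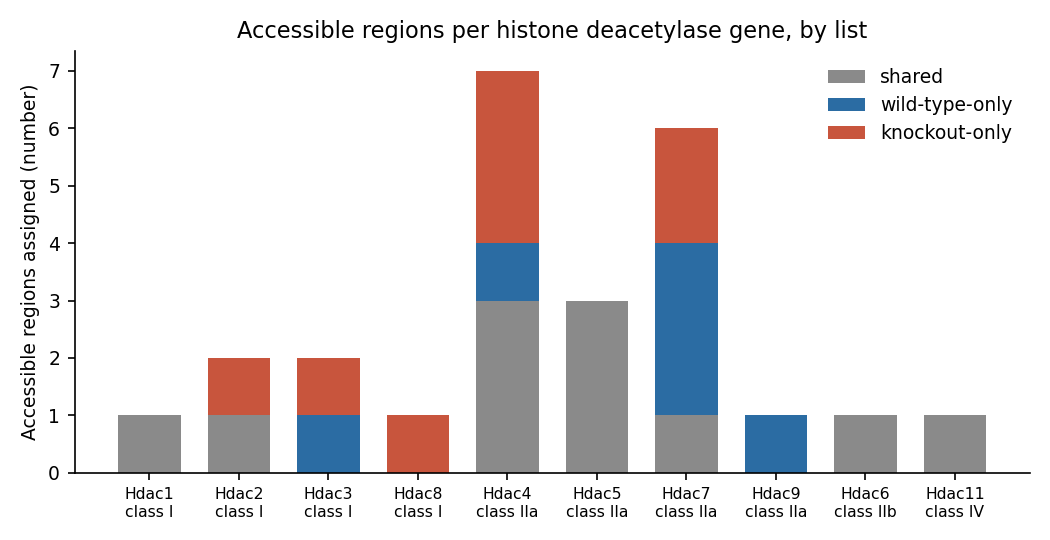
Number of accessible regions assigned to each histone deacetylase gene, stacked by whether both lists (grey), the wild-type list alone (blue) or the knockout list alone (red) held a peak. Hdac4 has 7 regions and Hdac7 has 6, while Hdac9 has 1 wild-type-only and Hdac8 1 knockout-only region.

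The regions hugged their genes. Of the 25, 24 overlapped the gene interval, against 71.2% of all assigned regions, and the other lay 14 bp from Hdac1. At the limit of 100 kb there was thus no member: the farthest lay at 14 bp, and the nearest region left to another gene lay 1242 bp from Hdac3, inside Diaph1. A wider limit was not tried. Within 100 kb no gene of the 10 had a distant intergenic region of its own.

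Sequence before a start site is shown for 4 genes as context for the peaks: Hdac5, Hdac6 and Hdac11, whose start sites were open in both lists, and Hdac9, whose start sites were open in neither. The letters are from RefSeq (GRCm38.p6), 5′ to 3′ on the gene's strand, and stop at the border of the gene interval. Capitals mark matches, on either strand, to the GC box (letters GGGCGG), the CCAAT box, the RUNX core (letters TGTGGT) and the MEF2 core. In the order printed, the stretches are chr11:102230173-102230422, chrX:7948048-7948139, chr6:91156565-91156669 and chr12:34917096-34917345, the first 2 and the last on the minus strand.
Hdac5: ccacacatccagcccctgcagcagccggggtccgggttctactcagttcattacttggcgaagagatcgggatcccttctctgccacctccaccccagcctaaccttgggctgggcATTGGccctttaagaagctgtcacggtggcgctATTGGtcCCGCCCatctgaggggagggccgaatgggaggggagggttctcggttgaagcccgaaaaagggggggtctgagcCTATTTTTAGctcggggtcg
Hdac6: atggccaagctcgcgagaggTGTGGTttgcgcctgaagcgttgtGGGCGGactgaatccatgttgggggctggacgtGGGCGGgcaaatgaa
Hdac11: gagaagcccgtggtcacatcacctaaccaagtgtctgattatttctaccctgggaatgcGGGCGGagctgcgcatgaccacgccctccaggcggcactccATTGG
Hdac9: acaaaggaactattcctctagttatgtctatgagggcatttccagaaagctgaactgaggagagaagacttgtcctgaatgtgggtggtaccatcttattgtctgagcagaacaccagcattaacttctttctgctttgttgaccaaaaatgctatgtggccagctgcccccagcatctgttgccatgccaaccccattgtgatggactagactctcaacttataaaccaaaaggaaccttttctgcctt
Of the 250 Hdac5 bases, the 100 next to the start site lay in the wild-type peak and 120 in the knockout peak. Of the 92 Hdac6 bases 76 and 58 were covered, of the 105 Hdac11 bases 33 and 26, and of the 250 Hdac9 bases 0 and 0.

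Among class I genes, Hdac1 had the peak ranked highest in each list. Hdac1, a catalytic subunit of the Sin3, NuRD and CoREST complexes, carried 1 shared region just outside the upper end of the gene (chromosome 4, 129542660 to 129542958). The wild-type peak was 299 bp wide with its summit 108 bp outside the gene, and the knockout peak was 268 bp wide with its summit 143 bp outside. Their summit pileups, the numbers of reads overlapping at the peak's highest base as counted in peak calling, were 20 and 19. Pileups here and below were not scaled to the depth of the libraries, so no change between genotypes is read from them. The deposited −log10 q of 23.0 and 22.9 placed the peaks in the top 4.65% and 7.19% of their lists. The knockout peak lay wholly inside the wild-type one. Hdac1 has no start site in the RefSeq table used, so distances are given to the gene's upper end.

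Hdac2, the partner of Hdac1 in the same complexes, had a second site in the knockout list. In a shared region (chromosome 10, 36974181 to 36974335) the wild-type summit lay 286 bp and the knockout summit 312 bp before the start site. The peaks there were 155 and 100 bp wide, with pileups of 8 and 6. A further knockout peak (36974453 to 36974589, pileup 8) lay across the start site itself, with its summit 47 bp before it and 117 bp between it and the nearest wild-type peak. Both knockout peaks ranked below the median of their list, in the top 96.3% and 69.9%, as did the wild-type peak in its own (75.3%). Only the knockout peak of the shared region stood near the lower end of what was called.

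At Hdac3, the catalytic subunit of the NCoR and SMRT complexes, each list held 1 peak and the 2 did not touch. The wild-type peak (chromosome 18, 37954768 to 37954867, pileup 7) had its summit 204 bp inside the upper end of the gene. In the knockout list the peak (37954940 to 37955074, pileup 7) spanned that end, with its summit 2 bp outside the Hdac3 interval and in the neighbouring gene Rell2. Only 72 bp separated them. Counting peaks with up to 150 bp between them as 1 region made Hdac3 a shared locus, as it did for the extra peak of Hdac2.

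Hdac8, an X-linked class I enzyme known for deacetylating the cohesin subunit SMC3, had a single knockout-only region (chromosome X, 102505301 to 102505403) 209 bp before its start site, with a pileup of 5 (exact Poisson interval 1.62 to 11.7). Here and below, such pileup intervals cover counting error at the summit only, not the selection of called peaks, depth or the spread between animals. The nearest wild-type peak was 253098 bp away. With so few reads the lack of a wild-type peak shows only that no call was made there, since the lists do not give the signal outside peaks.

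**Figure D2:**
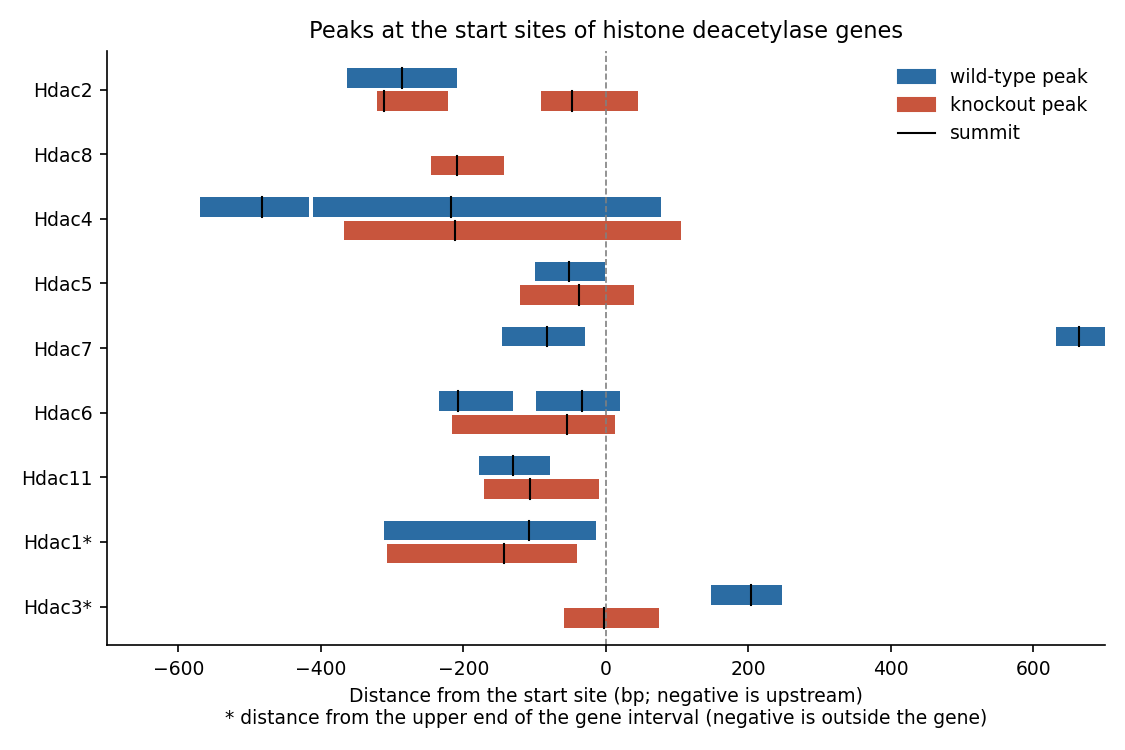
Peaks (bars) and summits (black ticks) of the wild-type (blue) and knockout (red) lists around 1 start site per gene, in bp, drawn to scale; for Hdac1 and Hdac3 zero is the upper end of the gene interval. Hdac1, Hdac4, Hdac5, Hdac6 and Hdac11 have overlapping peaks. Hdac2 has an extra knockout and Hdac4 an extra wild-type peak, the Hdac3 peaks lie 72 bp apart, and Hdac7 and Hdac8 have a peak in 1 list.

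Class IIa genes held 17 of the 25 regions, 7 shared, 5 wild-type-only and 5 knockout-only. They include the longest of the 10 genes, Hdac9 (870 kb) and Hdac4 (267 kb). The count was not scaled to gene length, so no concentration in this class is read from it. Hdac4, a signal-dependent repressor of MEF2 targets, had the most, with 3 regions in both lists, 1 in the wild type alone and 3 in the knockout alone, over a gene of 267 kb. Its RefSeq start site (92180341, 15361 bp inside the gene interval) carried the widest peak of all 10 genes in each list and, by −log10 q, the strongest in the knockout list; by the authors' fold the knockout peak of Hdac1 ranked above it. There the wild-type peak spanned 489 bp and the knockout peak 474 bp, with summits 217 and 212 bp before the start site and pileups of 22 (interval 13.8 to 33.3) and 30 (20.2 to 42.8). A wild-type-only peak of 154 bp lay 47 bp beyond the edge of the knockout peak, farther from the start site (92180757 to 92180910). Together the wild-type peaks extended the open stretch upstream to a point that the knockout list did not reach.

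Inside Hdac4, 2 regions were shared and 3 were found in the knockout list alone. The shared ones lay 52.4 and 163 kb past the start site, with pileups of 7 and 9 in the wild-type and of 14 and 16 in the knockout library. The knockout-only ones lay 43.1, 100 and 225 kb past it, with pileups of 8, 11 and 4. The middle one (chromosome 1, 92080261 to 92080453) was the strongest of these, in the top 32.2% of the knockout list, and the last was among the weakest peaks there, in the top 97.3%. The nearest wild-type peaks were 9220, 47439 and 62336 bp away, so these were not edges of a shared site.

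Hdac5, another MEF2 corepressor, had 3 regions and all were shared. At the start site the wild-type peak was 100 bp wide, with a pileup of 6, and the knockout peak 161 bp, with a pileup of 11. The 2 other regions lay 11.2 and 21.1 kb into the gene, with wild-type pileups of 15 and 9 and knockout pileups of 14 and 10. At 11.2 kb the summits of the lists were 2 bp apart, the closest pair among the 10 genes. Hdac5 was thus the class IIa gene with the same set of sites in both libraries.

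Hdac7, the class IIa member best known from thymocytes and endothelium, had 6 regions and only 1 of them in both lists, with 3 in the wild type alone and 2 in the knockout alone. The shared region, 3.51 kb past the outermost start site by its wild-type summit, was weak, with pileups of 6 and 5 and widths of 105 and 100 bp. Of the wild-type-only peaks, 1 lay 83 bp before an inner start site (chromosome 15, 97831524 to 97831641, pileup 8), 1 lay 664 bp after the same site (pileup 9), and 1 lay 6.62 kb before a start site farther down (97821402 to 97821539, pileup 9). In the knockout list none of the 4 windows of 250 bases before Hdac7 start sites held a peak.

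One knockout-only peak in Hdac7 stood out for its strength. It lay 6.35 kb after the start site at 97831495 (97825080 to 97825246), was 167 bp wide, had a pileup of 18 (interval 10.7 to 28.4) and ranked in the top 10.2% of the knockout list. The nearest wild-type peak was 3540 bp away, and it was itself wild-type-only. The other knockout-only peak was weak, with a pileup of 6 and a place in the top 83.4%.

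The wild-type-only peak at the Hdac7 start site held the GATA core GATAA, 71 to 75 bp before the site. GATA factors are central to mast cell identity. The 30 bases around it (RefSeq, chr15:97831553-97831582, minus strand) are printed with the match in capitals.
Hdac7: ctctcagactcaGATAAagcatttccttcc
The same letters, on either strand, occur in 20.5% of 21045 windows of 250 bases before start sites of protein-coding genes and in 12.4% of those overlapped by a peak, so the match is a description of the peak's content and no sign of binding. Of the 12 windows of the listed genes 3 held it, and the matches at the outermost Hdac7 and the inner Hdac9 start site lay in no peak.

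Hdac9, a class IIa gene of 870 kb, had a single region. It was a wild-type-only peak (chromosome 12, 34847464 to 34847563) 69.6 kb into the gene, at the minimum width of 100 bp, with a pileup of 5 (interval 1.62 to 11.7) and in the top 88.0% of its list. Neither start site was open in either list. By number of regions Hdac9 was the emptiest of the class IIa genes despite being the longest.

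**Figure D3:**
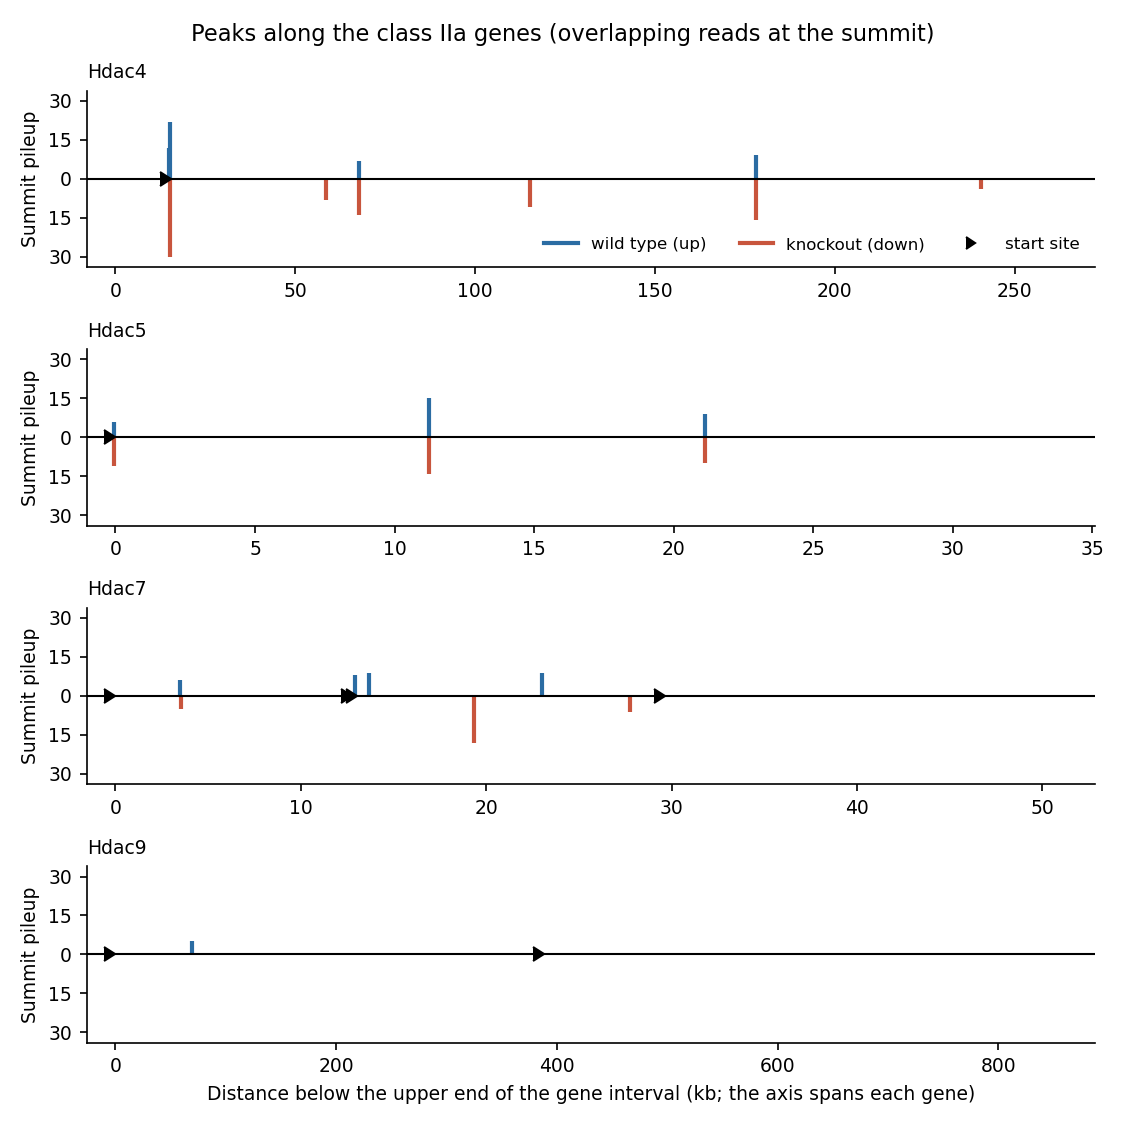
Peaks along the 4 class IIa genes, by distance below the upper end of the gene interval in kb, each gene on its own scale; bars up are wild-type and bars down knockout summit pileups (overlapping reads), and black arrowheads are RefSeq start sites, all read left to right. Hdac5 shows 3 pairs of bars. Hdac4 has 3 knockout bars with no partner and, right next to its start site pair, 1 wild-type bar with none. Hdac7 has 1 pair among 6 regions and Hdac9 a single wild-type bar.

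Outside these classes, both genes had 1 shared region at the start site. At Hdac6, the tubulin deacetylase gene, the wild-type list held 2 peaks of 119 and 105 bp, with summits 33 and 208 bp before the start site and a pileup of 8 each. In the knockout list 1 peak of 230 bp and pileup 10 overlapped both, with its summit 54 bp before the site. At Hdac11 the wild-type peak was 100 bp wide with its summit 130 bp before the start site and a pileup of 7, in the top 55.6% of its list. The knockout peak was 162 bp wide, with its summit 107 bp before the site and a pileup of 15, in the top 10.6%.

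Start sites were compared in 12 windows of 250 bases, which the RefSeq table gives for 8 of the 10 genes. In each list 6 of the 12 windows were overlapped by a peak, against 27.6% of all windows for wild-type and 29.5% for knockout peaks. Hdac2, Hdac4, Hdac5, Hdac6 and Hdac11 were overlapped in both, Hdac7 in the wild type alone and Hdac8 in the knockout alone, which makes 6 of 8 genes in each list, against 30.6% and 32.7% of 17274 genes.

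CpG dinucleotides, the sites that DNA methyltransferases act on, were unevenly spread among these windows. The overlapped windows held 27 (Hdac2), 25 (Hdac7), 23 (Hdac4), 17 (Hdac6 and Hdac11), 12 (Hdac5) and 6 (Hdac8). Those overlapped in neither list held 0 and 2 for Hdac9 and 5, 6 and 21 for the other Hdac7 start sites. Over all windows the median was 18 with a peak in either list and 5 without one. Of the 1357 windows with 0 CpG, like that of Hdac9, 0.442% were overlapped by a wild-type and 0.295% by a knockout peak. Among the 5048 with 20 or more the shares were 49.4% and 52.9%. Methylation was not measured.

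MEF2 factors recruit class IIa deacetylases. The MEF2 core was searched loosely, on both strands, as CTA and TAG with any 4 bases between them. It was in 3.09% of all windows and in 3 of the 12 listed ones, those of Hdac2, Hdac5 and the inner start site of Hdac9. In Hdac5 it read CTATTTTTAG, 11 to 20 bp before the start site, and lay inside the peak of both lists. The matches of Hdac2 (CTACCCGTAG) and Hdac9 (CTAGCTTTAG) lay in no peak. Only the Hdac5 match has A or T alone between CTA and TAG, so the 3 matches are a count of letters, not of MEF2 sites. GC boxes, known as Sp1 sites, were in 6 of the 12 windows (43.1% of all) and CCAAT boxes in 5 (35.6%). The RUNX core was in 3 (12.2%), those of Hdac2, Hdac6 and Hdac8. Matching the E-box of the MITF type, CACGTG, were 0 of the 12 (6.7% of all), and matching AP-1, TGANTCA, was 1 (6.17%), in Hdac9. These motifs were chosen with the letters in view.

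Shared peaks had about the same width in both genotypes. In the 10 shared regions with 1 peak of each list, the knockout peak was wider in 5 and narrower in 5, and the median ratio of knockout to wild-type width was 1.06 (range 0.645 to 1.62). Over all 12299 such regions the median ratio was 1.05 and 56.7% were wider in the knockout list. A ratio of at least 1.5 was found at the start sites of Hdac5 (1.61) and Hdac11 (1.62), that is in 2 of 10, against 12.1% of all. At Hdac2 the wild-type peak was the wider by that margin (0.645), 1 of 10 against 5.79%. All 3 pairs include a peak at the 100 bp minimum, which 15.9% of wild-type and 15.3% of knockout peaks had, so these ratios depend on that floor.

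**Figure D4:**
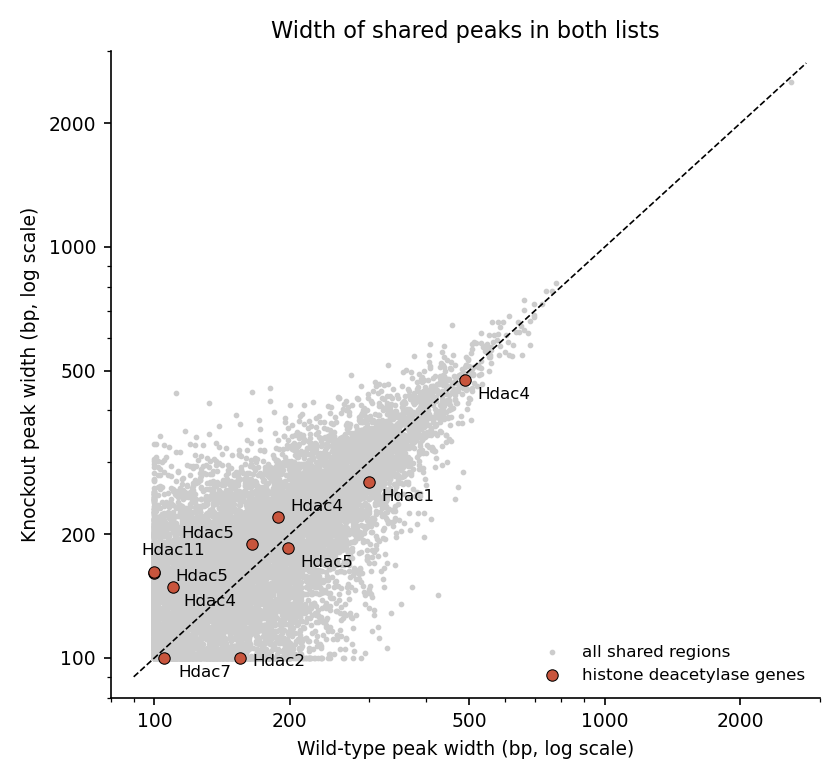
Width in bp (log scales) of the wild-type (horizontal) and knockout peak (vertical) in shared regions with 1 peak of each list; red points are the 10 histone deacetylase regions, grey points all 12299, and the dashed line marks equal width. The red points lie on both sides of the line, and Hdac5 (1.61) and Hdac11 (1.62) sit farthest above it, on top of each other at a wild-type width of 100 bp.

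Positions of shared peaks differed little. The summits of the 10 pairs were a median of 15 bp apart (range 2 to 35), and 9 of 10 were within 30 bp, against a median of 28 bp and 53.6% over all such regions. The largest shift, 35 bp, was at Hdac1. The shifts went in both directions along the chromosome.

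Of the 14 unshared peaks, 4 (28.6%; interval 8.39 to 58.1) lay within 150 bp of a peak of the other list. They were the extra knockout peak of Hdac2, both peaks of Hdac3 and the wild-type-only peak of Hdac4. Among all unshared regions the share was 8.42%, inside that interval, so no excess is read from the 4. The interval treats the peaks as independent, yet the Hdac3 peaks are each other's neighbours and were counted from both sides. The other 10 unshared peaks, in Hdac4, Hdac7, Hdac8 and Hdac9, were 3540 bp or more from any peak of the other list.

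Within the wild-type list, 5 of the 18 peaks ranked above the median −log10 q and 1, that of Hdac1, in the top 10%. Within the knockout list, 12 of the 19 ranked above it, and those in the top 10% were the start site peak of Hdac4 and the peak of Hdac1. The −log10 q values are the authors' and rank a peak only within its own list, so that no change between genotypes is read from them. Unshared peaks had pileups from 5 to 12 in the wild-type and from 4 to 18 in the knockout list.

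**Figure D5:**
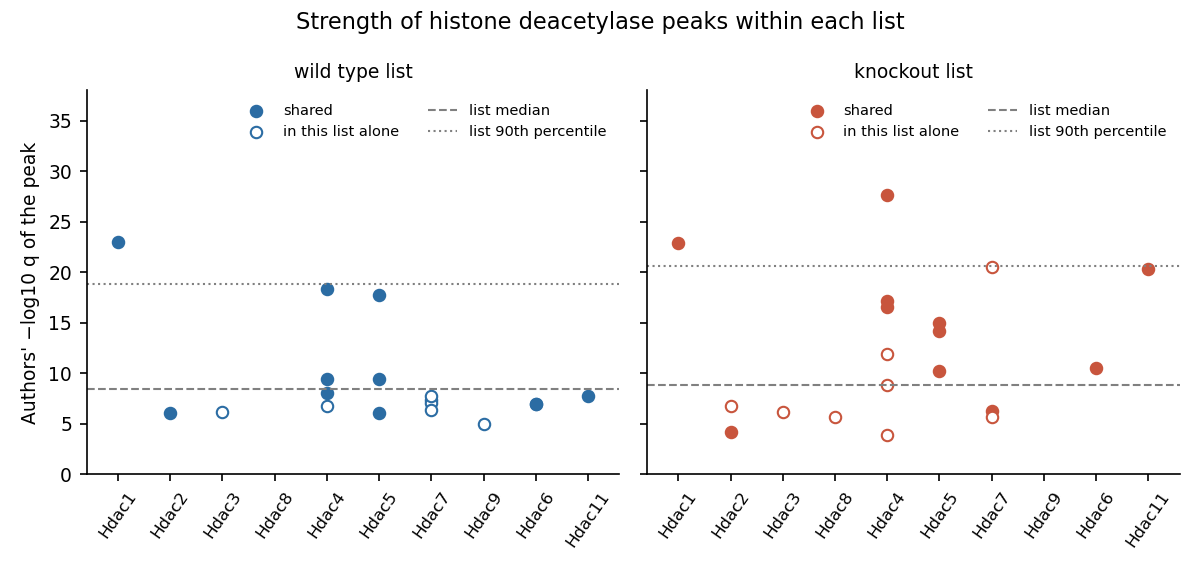
Deposited −log10 q of each histone deacetylase peak within the wild-type (left) and knockout list (right); filled points are shared regions, open points peaks in 1 list alone, and grey lines the median (dashed; 8.49 and 8.89) and 90th percentile (dotted; 18.8 and 20.6) of each list. Hdac1 lies above the dotted line in both lists, Hdac4 in the knockout list, and the knockout peaks of Hdac7 (in that list alone) and Hdac11 lie just under it; the 2 Hdac6 wild-type peaks coincide.

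Genes that work with the deacetylases were described in the same way. Of 53 genes, those of corepressor complexes, MEF2 factors and NAD-dependent sirtuins plus the unlisted deacetylase gene Hdac10, 47 had a region, against 53.7% of all protein-coding genes. Their 103 regions were 67 shared (65.0%), 13 wild-type-only (12.6%) and 23 knockout-only (22.3%), against 55.1%, 16.9% and 28.0% of all regions. The 65.0% lies at the upper edge of the interval of the deacetylase genes' shared regions (24.4 to 65.07). That interval counts regions of the same gene as independent and leaves out the counting error of the partner genes, so it cannot decide whether the sets differ. Of the 47 genes, 21 had shared regions only, 14 had more knockout-only and 7 more wild-type-only regions, and 5 had as many of each. The same split over all genes was not counted. Of the unshared regions at the partner genes 63.9% were knockout-only, near the 62.3% of all unshared regions, so the 14 against 7 is no trait of these genes. The difference between the gene sets was not tested.

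By complex, the NCoR and SMRT subunit gene Tbl1xr1 had 2 shared and 3 knockout-only regions. Of the knockout-only regions 2 lay 80.1 and 84.4 kb away from the gene, and the other lay within 150 bp of a shared region. Tbl1x, which encodes a close relative, had 2 shared and 2 wild-type-only regions, and neither wild-type-only region overlapped the gene. Rcor1, the scaffold of CoREST, had 2 shared and 2 knockout-only regions. Of the latter, 1 lay 22.3 kb outside the gene and 1 was weak, with a pileup of 4 and a −log10 q of 3.44. Sin3b, a Sin3 scaffold, had 2 knockout-only regions inside the gene and no other. Mideas, the scaffold of a mitotic Hdac1 and Hdac2 complex, had 4 shared regions and 1 wild-type-only region. In the NuRD complex Mta3 had 4 shared regions and 1 knockout-only region, and Chd4, its remodelling ATPase, had 1 wild-type-only region. Mef2d had 3 shared regions and 1 wild-type-only region. The latter lay 19.2 kb outside the gene and was weak, with a pileup of 4 and a −log10 q of 3.84. Shared regions at 5.53 and 5.88 kb also lay outside Mef2d. Mef2c had no region in either list. Among sirtuins Sirt1, Sirt4 and Sirt6 had 1 shared region each, Sirt2 had 1 shared and 1 knockout-only region, Sirt7 had none, and Sirt3 and Sirt5 had 1 of each kind. Hdac10, a class IIb gene outside the 10 listed, had 1 wild-type-only region (chromosome 15, 89128641 to 89128765). Mideas and Mef2d were tied at a difference of 1 region with Brms1, Phf12, Chd4 and Hdac10, and were taken for having more regions. Mta3, Chd4, Mef2c, Hdac10 and the sirtuins were named after their values were seen.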

How the data were processed

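ATAC-seq peak lists of 1 wild-type and 1 Dnmt3a knockout culture were used. Reads were 50 bp single reads at a stated depth of 10 M per library, per the labels' protocols. The submitters' processing notes list Trimmomatic, Bowtie2 and MACS2 and the builds mm10 and GRCm38. Tool versions and settings, and whether reads were shifted for the Tn5 offset or extended before counting, were not given in the sources used here. The authors deposited 1 peak list per sample with a score (10 times the −log10 q), a fold ratio of summit over local background, and −log10 p-values and q-values. Summit pileups are whole numbers recovered from the deposited fold and −log10 p (tolerance 0.001; 100% of peaks), assuming a pseudocount of 1 and a Poisson p.

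Peaks sharing at least 1 bp were merged, and regions given to the nearest protein-coding gene interval within 100 kb (RefSeq, GRCm38.p6), or to each gene at that distance where several tied. The build of the files, mm10, is the same assembly; coordinates are 1-based. Start sites came from the RefSeq promoter table, which matched 8 of the 10 genes. Python 3.11.15, NumPy 2.4.6, pandas 2.3.3, SciPy 1.17.1 and matplotlib 3.10.9 were used. The merging and assignment steps were tested on simulated data and recovered 300 of 300 simulated loci. No test was possible with 1 library per genotype; shares have exact (Clopper-Pearson) 95% intervals. All 10 listed genes are named, and of the partner genes up to 3 with the largest difference of unshared regions in each direction, with ties settled by the larger number of regions. Members and lists were chosen with earlier results of these data known. Alternatives were limits on −log10 q, equal numbers of peaks, other overlaps and other assignments.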

Additional observations from a re-analysis of the deposited data

How the results depend on the processing

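No paired analysis was possible because there was a single library of each genotype. The region counts (shared, then wild type alone, then knockout alone) stayed within 1.5 times under all 9 alternatives, for the deacetylase genes (10 to 13, 4 to 8 and 6 to 9) and for their partner genes, as did the 9 genes per list under the 6 alternatives run for them. The knockout-only share of unshared deacetylase regions, 57.1%, ranged from 50.0% to 60.0% and lay at 50.0%, an even split, when peaks of either list under a −log10 q of 5 were dropped, when the longer list was cut to the length of the other, and by the nearest gene boundary. At the first and second of these the shared region of Hdac2 became wild-type-only, because its knockout peak (−log10 q 4.17) was left out. Under a reciprocal overlap of 50% the shared region of Hdac6 split into 2 wild-type-only regions and 1 knockout-only region. The median log2 ratio of knockout to wild-type width, 0.08, turned to -0.05 when each gene interval was widened by 10 kb, where 2 more shared regions entered; it ranged up to 0.2. Summit distances had medians of 14 to 15 bp. Ranking by the authors' fold put 5 wild-type and 11 knockout peaks above the median of their list. Depth limits all absent calls: most unshared peaks rested on 4 to 9 reads at the summit (medians 8.5 for wild-type-only and 7.5 for knockout-only peaks).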

Other observations

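Within 100 kb of the 10 genes lay 47 further regions that were nearer to other genes, 28 shared, 10 wild-type-only and 9 knockout-only. Over all regions the shares were 55.1%, 16.9% and 28.0%, so a majority of shared neighbours is no trait of these genes. Hdac6 had 10 such neighbours, 8 of them shared, including 1 at Gata1, the erythroid and mast cell transcription factor gene, 16.1 kb above it. Hdac3 had 10, of which 6 fell in Diaph1, a formin gene, with 5 of the 6 shared. Hdac7 had 7, including a knockout-only and a shared region in Vdr, the vitamin D receptor gene, at 47.9 and 63.8 kb. Around Hdac2 and Hdac9 there were 0, around Hdac4 1 (shared, 66.9 kb below it) and around Hdac8 1 (wild-type-only, inside Cited1, a transcriptional coregulator gene).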
